A study of Mus musculus with 12 samples.

Results

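The 9 genes described here, Mbp, Mog, Mag, Mobp, Cnp, Mal, Ugt8a, Myrf and Cldn11, encode proteins of myelin and of the mature oligodendrocytes that make it. They were chosen by name, by a rule that uses no measured value though earlier results of these data were known, and all 9 were among the 17202 genes of the table and passed the filter on low values that left 17111 genes for testing. RNA of the cerebral cortex was sequenced in 12 mice, 3 in each of 4 groups. Wild-type mice drank vehicle (VEH-WT) or verapamil plus curcumin (VERCUR-WT), and so did CD mice (VEH-CD and VERCUR-CD). CD mice carry a heterozygous complete deletion of the Williams–Beuren syndrome interval, from Gtf2i to Fkbp6, in every cell of the body, so that no group isolates an effect in oligodendrocytes.

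The labels give the strain as C57Bl6 and the age as 16 weeks for all groups. The treated mice received curcumin at 60 mg/kg/day and verapamil at 10 mg/kg/day for 1 month from 8 weeks of age by the labels, while the study's methods state a lower verapamil dose and a younger age at death. These ages do not add up within the labels either, and the difference was not resolved. By the methods the mice were male, the vehicle was drinking water with DMSO, the tissue was frontal cortex, and the CD line had been crossed with Thy1-YFP mice, in which a neuronal promoter drives a fluorescent protein. The verapamil and curcumin groups that were given 1 compound alone were not analysed here. Nothing in the labels says which mice shared a litter, cage or library batch, and p-values below measure the spread between these 12 mice.

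Values are normalized counts, that is, reads counted per gene divided by 1 factor per mouse. Gtf2i, the deletion check, had 11579 to 12750.4 normalized counts in the 6 wild-type mice and 5916 to 6729 in the 6 CD mice. Between 40290000 and 56480000 reads were counted per mouse, and the fewest for any of the 9 genes in any mouse were the 798 reads of Mog in VERCUR-WT 1, where counting alone gives an error of 3.54%. The mouse VERCUR-CD 2 stood apart from the rest: it had the lowest of the 12 values for 17.9% of all genes tested and the highest for 21.5%. It was neither the lowest nor the highest mouse for any of the 9 myelin genes.

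Myelin is the stack of membrane that oligodendrocytes wrap around axons in the brain and spinal cord, which lets impulses travel fast. Oligodendrocytes arise from precursors that keep dividing in the adult brain, and on maturing they switch on myelin genes together under transcription factors such as SOX10 and MYRF. MBP is a main protein of compact myelin, and further proteins mark its outermost and innermost layers and the tight junctions between them. Myelin is rich in cholesterol and galactolipids. In the cortex, myelinated fibres are denser in the deep layers and in the white matter beneath them than near the surface.

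The promoters of the members are shown first, and several hold cores that the factors of the lineage bind. Whether these cores have a part in how the genes vary over mice was not tested. RefSeq promoter windows of 300 bases on GRCm38.p6 were used, with 250 before and 50 after the annotated start. Of the 9 genes 7 were counted, in 9 windows. Mbp and Myrf were left out of these counts, so the counts say nothing about either, and no window is printed for them. Both strands were searched for CTGGCAC and CTGGTAC, the cores of the MYRF motif, and ACAAAG, the core of the SOX motif. A MYRF core lay in windows of 3 of the 7 genes, Mag, Cnp and Mog, against 7.1% of all 32851 windows. ACAAAG lay in 3 of the 7, Mag, Cnp and Mobp, against 18.7% of all windows. The stretches up to the base before the start are printed 5′ to 3′ on the strand of the gene, with these cores, in either orientation, in capitals.
Mag, chr7:30914864-30915013, minus strand: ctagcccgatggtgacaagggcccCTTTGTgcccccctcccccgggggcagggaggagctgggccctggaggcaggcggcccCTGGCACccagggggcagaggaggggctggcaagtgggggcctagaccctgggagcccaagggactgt
Cnp, chr11:100574759-100574938, plus strand: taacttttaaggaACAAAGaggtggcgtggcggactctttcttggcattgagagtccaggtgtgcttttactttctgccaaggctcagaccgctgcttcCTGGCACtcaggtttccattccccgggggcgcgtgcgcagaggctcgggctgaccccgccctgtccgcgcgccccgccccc
Mog, chr17:37023399-37023548, minus strand: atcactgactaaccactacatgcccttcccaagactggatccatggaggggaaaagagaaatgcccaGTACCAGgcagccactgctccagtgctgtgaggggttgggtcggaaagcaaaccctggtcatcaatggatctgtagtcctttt
Mobp, chr9:120149492-120149741, plus strand: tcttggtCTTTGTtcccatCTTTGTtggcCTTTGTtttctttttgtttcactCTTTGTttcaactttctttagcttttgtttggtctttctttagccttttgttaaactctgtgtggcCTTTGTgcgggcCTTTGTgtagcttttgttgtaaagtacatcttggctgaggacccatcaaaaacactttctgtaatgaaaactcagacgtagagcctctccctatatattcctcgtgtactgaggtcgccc

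In Mag the MYRF core began 68 bases and the SOX core 126 bases before the start used here, or 9 and 67 bases before another annotated start of Mag. In Cnp these distances were 81 and 167 bases, and in Mog the MYRF core began 83 bases before the start on the opposite strand. Mobp held 6 matches to ACAAAG, all on the opposite strand, the nearest 120 and the farthest 243 bases before the start, and no MYRF core. None of the 4 overlapped another searched core. The E-boxes CAGCTG and CAGATG and the TATA box TATAAA were found in none of the 7 genes' windows, against 16.3, 17.2 and 13.6% of all windows. The GC box GGGCGG was found in Cnp, Ugt8a and Cldn11, against 35.7% of all windows. Mal, which moved with the rest, held none of the motifs searched. A match describes these letters only.

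The genes lie on 8 chromosomes, none of them in the deleted interval. On GRCm38, with coordinates from GENCODE, Mbp lies at chr18:82475146-82585637 on the plus strand, Mobp at chr9:120149707-120181484 on the plus strand and Mal at chr2:127633226-127656695 on the minus strand. Mog lies at chr17:37010743-37023398 on the minus strand and Mag at chr7:30899176-30914873 on the minus strand. Cldn11 lies at chr3:31149920-31164324 on the plus strand, Cnp at chr11:100574904-100591729 on the plus strand, Ugt8a at chr3:125865271-125938619 on the minus strand and Myrf at chr19:10208272-10240748 on the minus strand. Mobp overlaps Gm38642 on the same strand, and Mbp and Cnp overlap Rpl21-ps8 and Dnajc7 on the opposite strand. How reads in shared stretches were assigned is not given in the sources used here, so these 3 values may hold some reads of the other gene.

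All 9 genes were well above the middle of the table, from the 67.8th percentile of mean normalized count for Ugt8a to the 99.5th for Mbp. Levels can be compared between genes only per length, here as the mean normalized count per kilobase of exon over the 12 mice. Mbp came first at 6014 ± 1553 per kilobase (SD, n = 12), followed by Cnp at 3742 ± 804. Mal (3009 ± 756), Cldn11 (2729 ± 735) and Mobp (2503 ± 719) came next and differed by less than 1 SD over the mice. Within a mouse the order was steadier: Mal was above Cldn11 in 12 of 12 mice and Cldn11 above Mobp in 11 of 12. Mag followed at 1723 ± 433 and Mog at 1189.9 ± 312. The enzyme gene Ugt8a (371 ± 89) and the transcription factor gene Myrf (259.6 ± 54.5) had the lowest levels per kilobase.

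Compact myelin is represented by Mbp, Mobp and Mal. Mbp encodes myelin basic protein, which holds the inner faces of the membrane together. Its normalized counts in VEH-WT 1, 2 and 3 were 57350.4, 48321 and 76369, and those in VEH-CD were 55567, 43309.8 and 52789. In VERCUR-WT they were 27071, 43808 and 68291, and in VERCUR-CD 53579.6, 47286 and 37423. The groups overlapped, and both the lowest and the highest of the 12 values belonged to wild-type mice. Mobp, a small basic protein of compact myelin, had 18881, 15691 and 27137 normalized counts in VEH-WT against 18950.5, 13446 and 17946 in VEH-CD. It had 8191, 15461 and 23366 in VERCUR-WT and 18506, 14844 and 13262 in VERCUR-CD. Its highest mouse was 3.31-fold above its lowest, the widest range of the 9. Mal, a proteolipid of membrane sorting, had 9900.5, 7409 and 12278 normalized counts in VEH-WT against 9083, 6920.1 and 8767 in VEH-CD. It had 4157, 7540.1 and 10518 in VERCUR-WT and 9351, 7668 and 6725 in VERCUR-CD. The order of mice was alike in these 3 genes, with VERCUR-WT 1 at the bottom and VEH-WT 3 and VERCUR-WT 3 at the top.

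**Figure D1:**
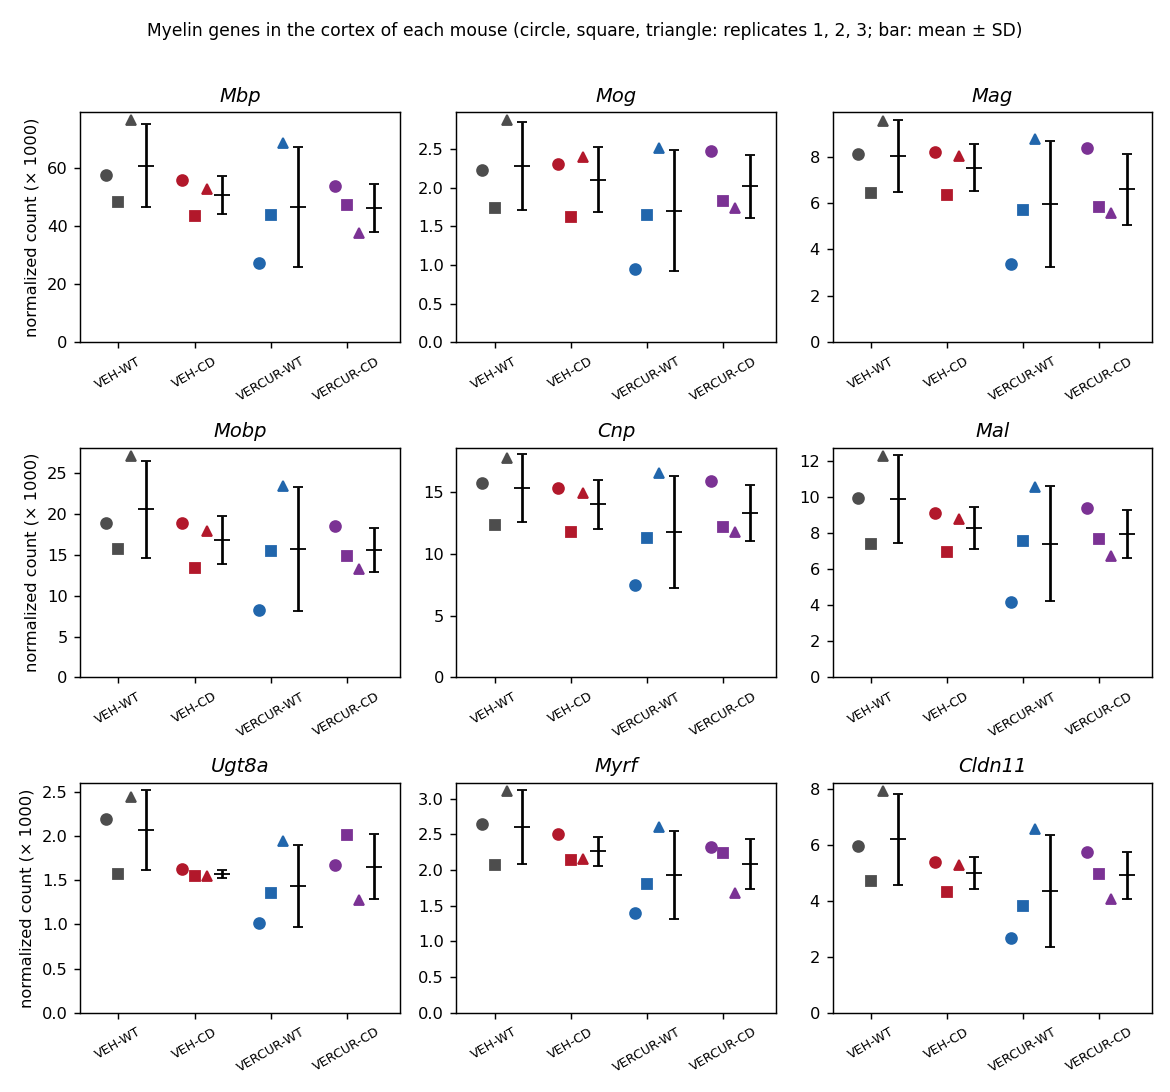
Normalized counts (in units of 1000, linear axis from 0) of the 9 myelin genes in the 4 groups, with 1 symbol per mouse and the mean ± SD of 3 mice as a black bar. In each panel the lowest of the 12 mice is replicate 1 of VERCUR-WT and the highest is replicate 3 of VEH-WT, and the groups overlap.

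The surfaces and junctions of the sheath are represented by Mog, Mag and Cldn11. Mog encodes the glycoprotein of the outermost layer and had 2234, 1734 and 2877 normalized counts in VEH-WT against 2307, 1618 and 2396 in VEH-CD. It had 947, 1649.5 and 2518 in VERCUR-WT and 2479.6, 1827 and 1743 in VERCUR-CD. Mag encodes the glycoprotein of the innermost layer, facing the axon. It had 8090.3, 6439 and 9547 normalized counts in VEH-WT against 8189.9, 6346 and 8010.1 in VEH-CD. With the co-treatment these were 3359, 5699 and 8761 in wild-type mice and 8358, 5834 and 5568 in CD mice. These 2 surface glycoproteins had nearly equal values in VEH-WT 1 and VEH-CD 1. Cldn11 encodes claudin 11, which forms the tight junctions between the layers. It had 5937, 4718 and 7916 normalized counts in VEH-WT against 5368, 4319 and 5267 in VEH-CD. Its values in VERCUR-WT were 2656, 3797 and 6544, against 5723, 4943 and 4045 in VERCUR-CD. The groups overlapped in all 3 genes.

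The enzymes are Cnp and Ugt8a, and Myrf is the transcription factor of the set. Cnp encodes the cyclic nucleotide phosphodiesterase that keeps cytoplasmic channels in the sheath open. It had 15799.5, 12379 and 17811 normalized counts in VEH-WT against 15374, 11764 and 14945 in VEH-CD. Its values in VERCUR-WT were 7525, 11278 and 16568, against 15944, 12222 and 11802 in VERCUR-CD. Ugt8a encodes the enzyme that makes galactosylceramide, a main lipid of myelin. It had 2195, 1567 and 2448 normalized counts in VEH-WT against 1624, 1548 and 1546 in VEH-CD, where the 3 mice lay closer together than in any other group. It had 1014, 1353 and 1941 in VERCUR-WT and 1676, 2009 and 1281 in VERCUR-CD. Myrf, which drives the myelin genes in maturing oligodendrocytes, had 2641, 2070.2 and 3112 normalized counts in VEH-WT against 2499.9, 2137 and 2157 in VEH-CD. With the co-treatment these were 1392, 1802 and 2602 in wild-type mice and 2329.6, 2241 and 1683 in CD mice. Here too the groups overlapped in all 3 genes.

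The first comparison asks whether the deletion alone changes these genes. In VEH-CD against VEH-WT all 9 log2 fold changes were below 0, with a median of -0.24, and none passed the test (0 of 9 called, against 0.257% of all genes tested). A call needed a fitted change of more than 25% in either direction, besides a limma p that stayed under 0.05 after Benjamini-Hochberg adjustment over all 17111 genes. Over all genes 50.7% had a log2 fold change below 0, and the signs of the 9 are not independent, since these genes varied together over mice. The values of Ugt8a lay lowest at a log2 fold change of -0.37 ± 0.22 (standard error), a fold of 0.773 with a 95% confidence interval of 0.554 to 1.08 (adjusted p = 0.539, limma). Those of Mag lay nearest to 0 at -0.09 ± 0.28. Those of Cldn11 were -0.29, of Mobp -0.27, of Mbp -0.25, of Mal -0.24, of Myrf -0.19, of Cnp -0.12 and of Mog -0.11. For none of the 9 were the 2 groups free of overlap, against 20.6% of all genes. The intervals reached from a fold of 0.522 to one of 1.45, so in this fit changes of that size cannot be told from none. There are 3 mice per group, and the fit pooled the SD of all 4 groups (for Mbp 0.67 in VERCUR-WT and 0.19 in VEH-CD). With only these 2 groups fitted, the mean standard error of the 9 was 0.16 instead of 0.26. The smallest unadjusted p was then 0.0246 and the smallest adjusted p 0.261 (limma), with none of the 9 called. Fewer mature oligodendrocytes in a sample and less myelin RNA per oligodendrocyte cannot be told apart in bulk RNA.

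Without VEH-WT 3 the median moved to -0.05 and Mog and Mag turned to 0.08 and 0.05, and without VEH-CD 2 it moved to -0.12. Without VEH-WT 2 it was -0.40.

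The second comparison asks whether the co-treatment changes myelin genes in wild-type mice. VERCUR-WT lay below VEH-WT on average in all 9 genes (50.5% of all genes did), with a median log2 fold change of -0.48, a fold of 0.715, and a range from -0.58 in Cldn11 to -0.44 in Cnp. None of the 9 was called, against 0% of all genes tested, since this comparison called no gene at all in limma (893 genes, 5.22%, had an unadjusted p under 0.05). Before adjustment 2 of the 9 had a p under 0.05, Ugt8a (log2 fold change -0.55 ± 0.22) and Myrf (-0.46 ± 0.21), and their adjusted p was 0.944 each (limma, Benjamini-Hochberg). Without the intensity trend in the fit, 1 of the 9 had an unadjusted p under 0.05 (limma). The groups overlapped in all 9 genes, with VERCUR-WT 3 above VEH-WT 2 throughout, while 9.72% of all genes had no overlap. The 95% intervals of the fold ran from 0.446 at the lowest to 1.14 at the highest.

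This difference turned on single mice. Without VERCUR-WT 1 the median log2 fold change was -0.15, and without VERCUR-WT 3 it was -0.80, where all 9 had an unadjusted p under 0.05 and the smallest adjusted p was 0.227 (limma). Without VEH-WT 3 the median was -0.32.

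**Figure D2:**
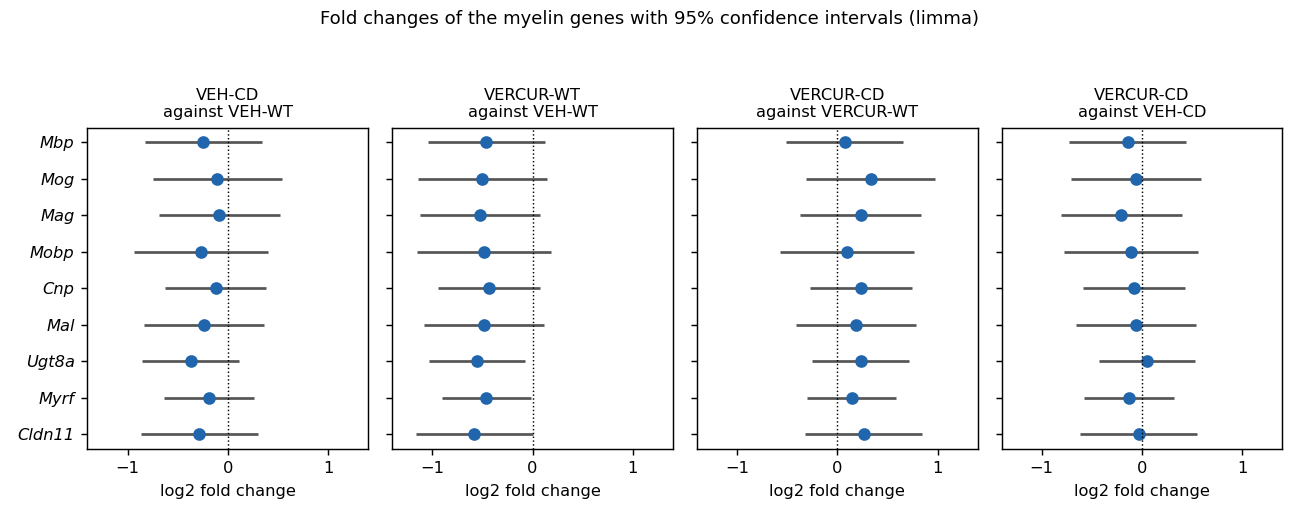
Log2 fold changes of the 9 genes (points) with 95% confidence intervals from limma (lines) in 4 comparisons, on 1 shared axis. Intervals reach 0 in all genes and comparisons shown except Ugt8a and Myrf in VERCUR-WT against VEH-WT, and none of the 9 passed the adjusted test.

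Between the genotypes on co-treatment (VERCUR-CD against VERCUR-WT) the 9 log2 fold changes had a median of 0.23 and ranged from 0.08 in Mbp to 0.33 in Mog. None of the 9 was called, against 0.146% of all genes. Without VERCUR-WT 1 the median was -0.07, with 8 of 9 genes below 0, and without VERCUR-WT 3 it was 0.49. Without VERCUR-CD 1 it was 0.06. With weights for sample quality (1 per mouse, from limma, whose estimate did not converge) it turned to -0.09, with 7 of 9 below 0. In CD mice, VERCUR-CD against VEH-CD, values lay close together: the median was -0.08 and the range -0.21 to 0.05, with no member called, against 0% of all genes (605 genes, 3.54%, had an unadjusted p under 0.05 in limma). The 95% intervals of these folds spanned 0.572 to 1.50. With only these 2 groups fitted, the mean standard error was 0.15 instead of 0.26, and the smallest unadjusted p was 0.232 (limma). This median was -0.01, -0.20 and -0.03 without VEH-CD 1, 2 or 3, -0.22 without VERCUR-CD 1 and 0.02 without VERCUR-CD 3, where 7 of 9 were above 0. With weights for sample quality it was -0.36, with all 9 at an unadjusted p under 0.05, a smallest adjusted p of 0.0426 (limma) and none called. For VERCUR-CD against VEH-WT the median was -0.32, with no member called, against 0.199% of all genes. It was -0.49 without VEH-WT 2, -0.16 without VEH-WT 3 and -0.18 without VERCUR-CD 3, and with weights for sample quality it was -0.61 and 7 of the 9 were called. This comparison shares VEH-WT with the first 2 comparisons.

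Over both treatments, CD against WT had log2 fold changes around a median of -0.02, with 6 genes lower (50.9% of all genes were), 3 higher and none called, against 0.321% of all genes. The largest distance from 0 there was 0.11, and the intervals of the fold spanned 0.680 to 1.48. Single mice set the direction: without VERCUR-WT 1 all 9 were lower (median -0.16), and without VERCUR-WT 3 all 9 were higher (median 0.12). The median was also above 0 without VEH-WT 3 (0.06), VEH-CD 2 (0.03) or VERCUR-CD 3 (0.05). It was -0.10 without VEH-WT 2, -0.06 without VEH-CD 1, -0.07 without VERCUR-CD 1 and -0.16 with weights for sample quality. Over both genotypes, VERCUR against VEH had a median of -0.29 and all 9 were below 0 (49.9% of all genes were), with none called, against 0% of all genes (506 genes, 2.96%, had an unadjusted p under 0.05 in limma). The smallest unadjusted p of the 9 in this comparison was 0.0635 and the adjusted p was 1.00 for all (limma, Benjamini-Hochberg). Without VERCUR-WT 1 this median was -0.13, and without VERCUR-WT 3 it was -0.45, with all 9 at an unadjusted p under 0.05 and a smallest adjusted p of 0.715 (limma). The interaction of genotype and treatment, which asks whether the co-treatment acts differently in the 2 genotypes, had a median of 0.37 on the log2 scale and a range of 0.32 to 0.60. None of the 9 passed, against 0% of all genes (1035 genes, 6.05%, had an unadjusted p under 0.05), and the adjusted p ran from 0.816 to 0.857 (limma). Without VERCUR-WT 1 its median was 0.07, with 3 genes below 0, and without VERCUR-WT 3 it was 0.72. Without VEH-WT 3 or VERCUR-CD 1 it was 0.24, and with weights for sample quality 0.12.

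**Figure D3:**
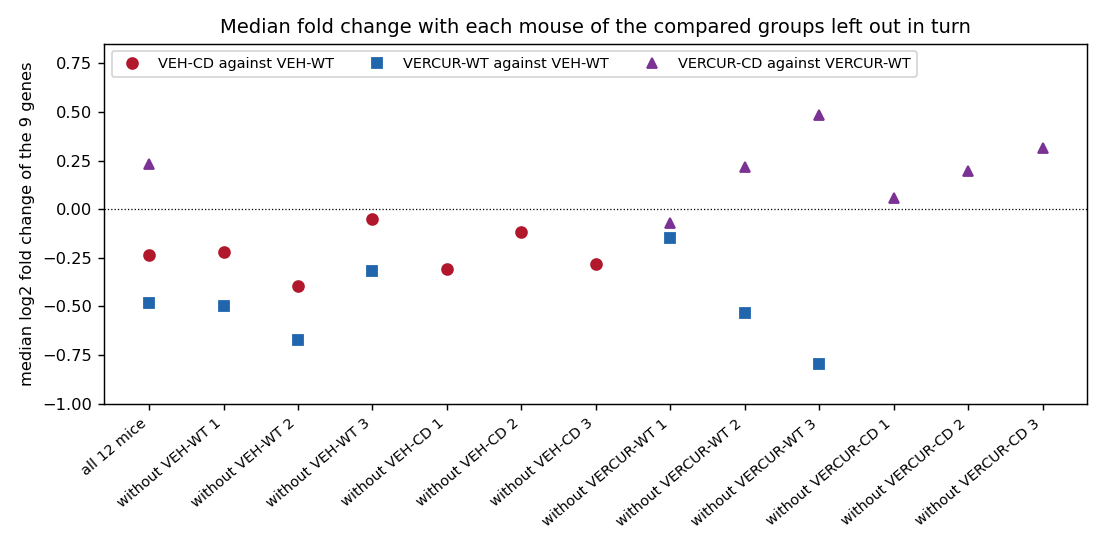
Median log2 fold change of the 9 genes in 3 comparisons, with all 12 mice and with each mouse of the 2 compared groups left out in turn. The median of VERCUR-CD against VERCUR-WT crosses 0 without VERCUR-WT 1, and that of VERCUR-WT against VEH-WT runs from -0.80 to -0.15.

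What the 9 genes shared most was their order over mice. VERCUR-WT 1 was the lowest of the 12 mice in 9 of 9 genes, against 8.17% of all genes, and VEH-WT 3 the highest in 9 of 9, against 6.72%. These 2 mice were picked out after the values were seen, so no test is given. The first principal component of the 9 genes' log2 values, centred per gene, held 95% of their variance. Relative to the mean over all mice, the median of the 9 genes was -0.89 on the log2 scale in VERCUR-WT 1, a fold of 0.539, and 0.58 in VEH-WT 3, a fold of 1.49. VERCUR-WT 3 followed at 0.37 and VEH-WT 1 at 0.25. In CD mice the medians ran from -0.28 in VERCUR-CD 3 to 0.21 in VERCUR-CD 1. As a share of all normalized counts, the 9 genes together made up 0.116% in VERCUR-WT 1 and 0.325% in VEH-WT 3, and 0.170% to 0.249% in the 6 CD mice.

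The spread was larger among wild-type than among CD mice: the highest over the lowest mouse was 2.24-fold to 3.31-fold in the 6 wild-type mice and 1.36-fold to 1.57-fold in the 6 CD mice, over the 9 genes. Without VERCUR-WT 1 the range over the other 5 wild-type mice was 1.58-fold to 2.08-fold. Without VEH-WT 3 instead it was 1.90-fold to 2.85-fold. These mice were the lowest and the highest in all 9 genes, and the range with both left out was not computed. This difference in spread was not tested. The SD within groups, on the log2 scale, was 0.31 in Myrf to 0.47 in Mobp, against a median of 0.14 over all genes tested. Among genes within 1 log2 unit of their level, these SDs stood at the 98.6th to 99.7th percentile. Between 18.1% (Mobp) and 35.1% (Ugt8a) of the variance over the 12 mice lay between the 4 groups, against a median of 26.6% over all genes, and the rest lay between mice of 1 group.

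Ugt8a followed the others least. After the mean of the other 8 genes was taken off in each mouse, 28.5% of its variance was left, against 2.11% for Mal and 15.8% for Myrf, the next highest. Its largest departure was in VERCUR-CD 2, where it lay 0.38 above the other 8 on the log2 scale, and it lay 0.22 below them in VEH-CD 3. In VERCUR-WT 1 the departures were 0.27 in Myrf, 0.21 in Ugt8a, 0.07 in Cnp and 0.02 in Mbp. They were -0.18 in Mog, -0.15 in Mag, -0.14 in Mobp, -0.09 in Mal and -0.01 in Cldn11.

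**Figure D4:**
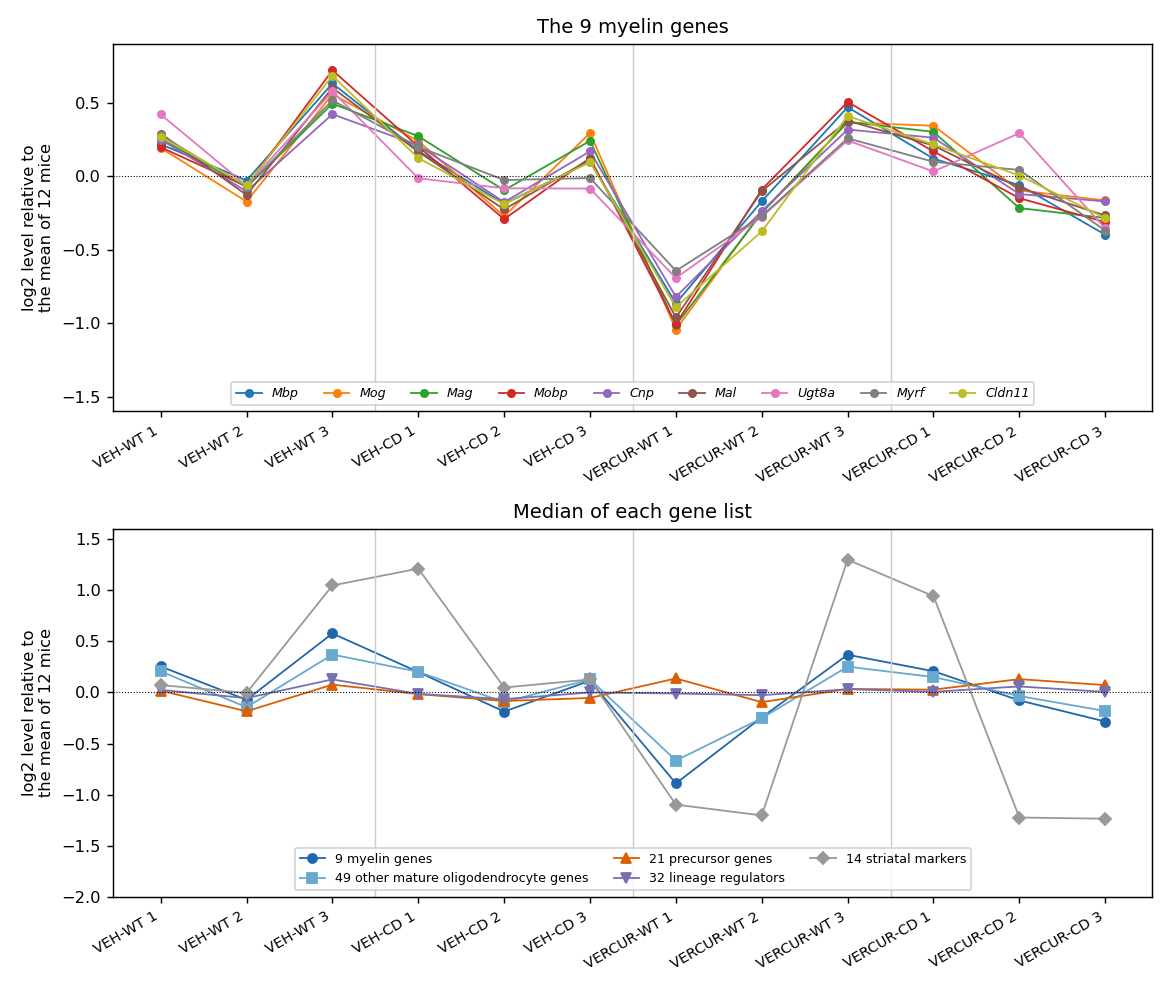
Log2 level of each of the 9 genes relative to its mean over 12 mice (upper panel) and the median of 5 gene lists on the same scale (lower panel), by mouse, with vertical lines between groups. The 9 genes run together, as do the 49 other mature oligodendrocyte genes, while precursor genes and lineage regulators stay near 0 and the striatal markers range from -1.24 to 1.30.

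Among the genes outside the set whose log2 levels were most like the mean of the 9 over the 12 mice were Prr18 (Pearson r = 0.983), Gna12 (0.980), Bcas1 (0.977) and Qdpr (0.972). They are given as a description, since they were picked as among the most alike of 17102 genes over mice that share 1 RNA sample per mouse. Bcas1 marks myelinating oligodendrocytes and ranged 2.58-fold, while Gna12, a G protein subunit made in many cell types, ranged 1.48-fold. In these 4 the lowest mouse was VERCUR-WT 1 and the highest VEH-WT 3. In all, 89 genes outside the set had r over 0.9.

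A list of 49 other genes of mature oligodendrocytes followed the same order of mice. VERCUR-WT 1 was the lowest mouse for 42 of the 49 genes and VEH-WT 3 the highest for 35. In VERCUR-WT against VEH-WT 48 of the 49 were lower, with a median log2 fold change of -0.37 against 0.00 over all genes, 9 had an unadjusted p under 0.05 (5.22% of all genes had one) and none was called. Of the same 49 genes 40 were lower and 9 higher in VEH-CD against VEH-WT, where 50.7% of all genes were lower. Their median was -0.08 and none was called. The most distant were Hhip at -0.38 ± 0.28 and Klk6, a protease of mature oligodendrocytes, at 0.43 ± 0.49. Over both treatments, CD against WT ranged from -0.14 in Pmp22 to 0.56 in Klk6. Klk6 had 24.9 normalized counts in VERCUR-WT 1 and up to 175 in VEH-CD 1, a 7.01-fold range. Of the 49 genes 47 were below their mean in VERCUR-WT 1, and the other two, Ptgds and Tppp, singled out after their values were seen, lay at 0.25 and 0.10 there. Both are also made by other brain cells.

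Genes of oligodendrocyte precursors did not follow. The 21 precursor genes had a median log2 level of 0.14 in VERCUR-WT 1, the highest of the 12 mice, and VERCUR-WT 1 was the lowest mouse for 0 of the 21. Pdgfra, the growth factor receptor that marks precursors, was 0.17 above its mean there and Cspg4 0.22 above, both named after their values were seen. In VERCUR-WT against VEH-WT 14 precursor genes were higher and 7 lower, the median log2 fold change was 0.04, and none passed the adjusted threshold. On vehicle 10 were higher in CD than in wild-type mice and 11 lower, from -0.27 in Vcan to 0.28 in Sapcd2. Over both treatments, CD against WT ranged from -0.18 ± 0.06 in Gpr17, a receptor of differentiating precursors (adjusted p = 0.318, limma), to 0.19 in Sapcd2.

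Among 32 regulators of the lineage, VERCUR-WT 1 was the lowest mouse for 6, and the median was -0.01 in that mouse. Sox10, which is needed for the oligodendrocyte fate and for myelin genes, lay at -0.60 there, and Erbb3 and Tmem98 at -0.66 and -0.59. Olig1 and Olig2 lay at -0.28 and -0.10. Of the 32 regulators 19 lay below their mean in VERCUR-WT 1 and the rest above it, among them Erbb4 at 0.21 and Hes5 at 0.20. The regulators given for this mouse were named after their values were seen. In VEH-CD against VEH-WT the regulators ran from -0.50 ± 0.16 in Sox8 (adjusted p = 0.263, limma) to 0.16 in Hes5, and over both treatments CD against WT ran from -0.16 in Nrg1 to 0.19 in Erbb3. No regulator passed the adjusted threshold in any comparison (limma).

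The lipid pathways that supply myelin varied little. The median within-group SD was 0.10 on the log2 scale for the 24 cholesterol synthesis genes and 0.10 for the 26 sphingolipid genes, against 0.41 for the 9 myelin genes. In VEH-CD against VEH-WT 15 of the 24 cholesterol genes were lower (50.7% of all genes were) and 9 higher. Of the 24, 4 had an unadjusted p under 0.05 (limma, 11.8% of all genes had one) and none was called. Cyp51, an enzyme of sterol demethylation, had the lowest value of the 24 at -0.30 ± 0.06 (adjusted p = 0.0696, limma), and Pmvk the highest at 0.14. Over both treatments Cyp51 was at -0.12 and Stard4 at 0.13. Among the sphingolipid genes 19 of 26 were lower in VEH-CD against VEH-WT (50.7% of all genes were), from -0.36 in Elovl7 to 0.16 in Degs2. Of the 26, 5 had an unadjusted p under 0.05 (limma, 11.8% of all genes had one) and none was called. Over both treatments they ran from -0.21 ± 0.05 in Cers1, a ceramide synthase of neurons (adjusted p = 0.116, limma), to 0.17 in Sgms2. Cers2, the ceramide synthase of very long chains that oligodendrocytes use, was named after its values were seen, with -0.46 in VERCUR-WT 1 and r = 0.951 with the mean of the 9.

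The 22 genes of axons and nodes of Ranvier also had a median within-group SD of 0.10. VERCUR-WT 1 was the lowest mouse for 7 of the 22, against 8.17% of all genes. In that mouse 10 of the 22 lay below their mean, and the median of the list was 0.01. In VEH-CD against VEH-WT 20 of the 22 were lower (50.7% of all genes were), with a median of -0.11. Of the 22, 1 had an unadjusted p under 0.05 (limma, 11.8% of all genes had one) and none was called. Nefh, the heavy neurofilament of thick axons, had the lowest value at -0.29 ± 0.09 (adjusted p = 0.223, limma), and Sptbn4, the spectrin of nodes, the highest at 0.08. Over both treatments CD against WT ran from -0.20 in Nefh to 0.05 in Nefl.

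Markers of other cells and regions were read in the same mice. The 14 markers of striatum, the region under the frontal cortex, differed widely between mice of 1 group, with medians of 0.07, 0.00 and 1.05 on the log2 scale in VEH-WT 1 to 3 and 1.21, 0.05 and 0.13 in VEH-CD. They were -1.10, -1.20 and 1.30 in VERCUR-WT and 0.94, -1.23 and -1.24 in VERCUR-CD. Their summed normalized counts were 40035 to 71714 in VEH-WT and 39287 to 76632 in VEH-CD. With the co-treatment they were 26976 to 81030.1 in wild-type mice and 27195 to 61424 in CD mice. All 14 were below 0 in VERCUR-WT against VEH-WT, with a median log2 fold change of -0.64, and none was called. All 14 were also below 0 in VERCUR-CD against VEH-CD, with a median of -0.89 and none called. Over both genotypes, VERCUR against VEH had a median of -0.76. There 3 of the 14 had an unadjusted p under 0.05 (limma, 2.96% of all genes) and none was called. The mouse with the most in each group, replicate 3 of both wild-type groups and replicate 1 of both CD groups, also had the highest median of the 9 myelin genes of its group. VERCUR-WT 2, VERCUR-CD 2 and VERCUR-CD 3 were as low in striatal markers as VERCUR-WT 1. The myelin medians of these 3 mice were -0.24, -0.08 and -0.28, and that of VERCUR-WT 1 was -0.89. The part of the striatal markers in these results was not tested.

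Without those 4 mice, an alternative chosen after seeing the data, the median log2 fold change of the 9 genes was -0.61 in VERCUR-WT against VEH-WT, all 9 with an unadjusted p under 0.05 and a smallest adjusted p of 0.482 (limma). In VEH-CD against VEH-WT it was -0.14, in VERCUR-CD against VERCUR-WT 0.38 and in CD against WT over both treatments 0.11. None of the 9 was called in any of the 8 comparisons.

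The medians of the other lists moved less over mice. That of the 15 deep layer genes, 14 of them in the table, ran from -0.31 in VERCUR-CD 3 to 0.22 in VEH-WT 3. It was -0.22 in VERCUR-WT 1, where 11 of the 14 lay below their mean. In VERCUR-WT against VEH-WT 12 were lower, 3 with an unadjusted p under 0.05 (limma, 5.22% of all genes). Over both genotypes, VERCUR against VEH had 12 lower, 5 with an unadjusted p under 0.05 (limma, 2.96% of all genes). Some of these genes are also made in striatum, and the part of deep layers in these results was not tested. The medians of the 10 upper layer genes ran from -0.10 to 0.15, of the 14 astrocyte genes from -0.23 to 0.15, of the 15 microglia genes from -0.24 to 0.13, of the 12 endothelial genes from -0.29 to 0.16 and of the 14 general neuron genes from -0.07 to 0.06. Of 10 choroid plexus genes 8 were in the table, with medians of -0.32 to 0.32. Of 9 genes of Schwann cells, which make the myelin of nerves outside the brain, 6 were in the table and the others were not analysed here. Prx and Ncmap, which are typical of Schwann cells, averaged 27.5 and 17.2 normalized counts, against 2028 for Mog. The other 4, Drp2, Egr2, Fbln2 and Cdh19, some of which other brain cells make too, averaged 3637, 482, 196 and 380.4, and the 6 summed to 4061 to 5938 per mouse. In VEH-CD against VEH-WT the 6 ran from -2.37 ± 0.52 in Egr2 (adjusted p = 0.105, limma) to 0.34 in Ncmap. Over both treatments CD against WT ran from -1.38 in Egr2 (adjusted p = 0.208, limma) to 0.39 in Ncmap. These 6 were named after their values were seen. No gene of these 8 lists or of the striatal list passed the adjusted threshold in any comparison (limma).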

How the data were processed

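Cortical RNA of 12 mice was sequenced by the authors as paired-end reads and mapped to GRCm38 with STAR 2.5.3a. The counting program, annotation release and normalization are not given in the sources used here. The deposited table holds normalized counts, and 100% of its low values were whole multiples of 1 step per mouse (within 0.1 of a whole number), which gave the read totals. It has decimal commas, and 16 symbols turned into dates were repaired by identifier. The other 2 deposited files hold the authors' own comparisons (expression relative to VEH-WT in genes they selected) and were not used.

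log2(normalized count + 1) was tested with limma 3.58.1 (R 4.3.3) with an intensity trend, in 1 fit of 4 group means over all 12 mice, for genes with a mean of at least 10 (17111 of 17202), two-sided. Fold changes are on that log2 scale. This took the place of the study's general linear model with a Wald test, while its fold thresholds were kept. The fit was tested on simulated data. Coordinates and exonic lengths come from GENCODE M21, which matched 17181 genes.

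The 9 genes and all lists were chosen with earlier results of these data known. Of each list related to myelin, the genes named are those with an adjusted p under 0.05 in any comparison (there were none) and the highest and lowest in CD against WT over both treatments and in VEH-CD against VEH-WT. Further genes named are those of the 5 most like the mean of the 9 (1 of them is not reported here), Gtf2i, and those said to be named after their values were seen. Replicate numbers did not pair the mice: correlations of same-numbered mice ran from -0.35 to 0.27. Alternatives covered pseudocount, filter, normalization, the samples fitted, weights, removal of single values, a replicate block and each mouse left out.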

Additional observations from a re-analysis of the deposited data

Results flagged for a closer look

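In Cldn11, which encodes the tight junction protein of myelin, the 3 VEH-CD mice all lay below the VEH-WT mean on the log2 scale, while the 3 VERCUR-CD mice all lay above the VERCUR-WT mean. This held on the log2 scale only: VERCUR-CD 3 had 4045 normalized counts, below the plain VERCUR-WT mean of 4332. The genotype difference on vehicle minus that on co-treatment was -0.55. Tested as an interaction of genotype and treatment, the difference did not pass the threshold (0.55 ± 0.38 with the opposite sign convention, adjusted p = 0.819 from limma). VERCUR-WT 1 had 2656 normalized counts of Cldn11, against 3797 and 6544 in the other 2 mice of its group.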

How the results depend on the processing

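With all 12 mice at equal weight and no value removed, no gene of the 9 was called in any comparison, and 461 of the 495 values recomputed with another pseudocount, filter, normalization, fit or set of mice (other than 1 mouse left out) kept their direction and side of the threshold or moved little. Weights for sample quality, estimated without reaching convergence, called 354 genes in VEH-CD against VEH-WT, 299 in VERCUR-CD against VERCUR-WT, 1015 in VERCUR-CD against VEH-CD, 1382 in VERCUR-CD against VEH-WT with 7 of the 9 among them, 456 in CD against WT, 3 in VERCUR against VEH and 18 for the interaction. Dropping 1 value from every group whose CV was 20% or more, the one farthest from its median, which narrows the spread by construction, called 972, 448, 241, 649, 840, 837, 442 and 492 genes in VEH-CD against VEH-WT, VERCUR-CD against VERCUR-WT, VERCUR-CD against VEH-CD, VERCUR-WT against VEH-WT, VERCUR-CD against VEH-WT, CD against WT, VERCUR against VEH and the interaction. Of the 9 it called 1 (Ugt8a) in VEH-CD against VEH-WT, 1 (Ugt8a) in VERCUR-CD against VERCUR-WT, 5 (Mag, Cnp, Ugt8a, Myrf and Cldn11) in VERCUR-WT against VEH-WT, 2 (Mag and Myrf) in VERCUR against VEH and 1 (Ugt8a) for the interaction, and Mog turned to 0.26 in VEH-CD against VEH-WT. Without the 4 mice with the most striatal markers, chosen after seeing the data, 16, 12, 16, 29 and 29 genes were called in VEH-CD against VEH-WT, VERCUR-CD against VEH-CD, VERCUR-WT against VEH-WT, CD against WT and VERCUR against VEH, and Mog in VEH-CD against VEH-WT was at 0.00028. With 1 mouse left out, 24 to 47 genes were called in VEH-CD against VEH-WT, 0 to 2 in VERCUR-CD against VEH-CD, 0 to 3 in VERCUR-WT against VEH-WT and 0 to 2 in VERCUR against VEH. In VEH-CD against VEH-WT Mog then ran from -0.29 to 0.076 and Mag from -0.24 to 0.049. Replicate numbers do not pair the mice, and with a replicate block 40 genes were called in VEH-CD against VEH-WT, none of them among the 9, and the number of the 9 called was 0 in the other comparisons too. Beyond the values given, the cause of these changes was not tested. The count models and TMM factors planned were not run. With 3 mice per group and standard errors of 0.21 to 0.31 on the log2 scale in the fit of all 4 groups, changes of well over 25% in these genes can be missed.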
